A study of Homo sapiens with 8 samples.

Results

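Sites of changed chromatin accessibility were examined around 6 genes of the pluripotency network, SOX2, POU5F1, NANOG, PRDM14, LIN28B and SALL4. The sites were those of both lists deposited by the authors whose centre fell in a fixed hg19 interval around each gene. The intervals were 180.8 to 182.2 Mb on chromosome 3 for SOX2, 31.0 to 31.3 Mb on chromosome 6 for POU5F1, 7.8 to 8.1 Mb on chromosome 12 for NANOG, 70.7 to 71.3 Mb on chromosome 8 for PRDM14, 105.2 to 105.7 Mb on chromosome 6 for LIN28B and 50.2 to 50.6 Mb on chromosome 20 for SALL4, 3.5 Mb in all. They held 26 of the 14191 listed sites.

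The study profiled open chromatin with ATAC-seq, where a transposase cuts and tags accessible DNA, in H9, an established human embryonic stem cell line. Its 8 samples formed 4 groups of 2. Wild-type cells were sampled as undifferentiated stem cells (day 0) and as surface ectoderm at day 7 in 1 uM retinoic acid (RA) and 5 ng/ml BMP4. Cells of genotype p63-/- were sampled at day 7 of the same regimen. Cells of genotype TetO:Tp63+/-, called p63GOF in the labels, received 2 ug/ml doxycycline for 2 days and were labelled day 0. The number of clones behind each engineered line was not stated.

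The first list has 8154 entries, named by the authors for opening under morphogens and linked by the labels to the wild-type groups. They are called opened sites below. The second has 6037 entries, whose name adds that p63 closes them, and is linked to the wild-type and p63-/- groups at day 7. They are called p63-closed sites below. TP63 encodes p63, a transcription factor needed for stratified epithelia. The labels link neither list to the doxycycline-treated line, and whether its samples were used in making the lists is not stated. The lists give a position and a numbered name for each site, with no signal, fold or value per sample, so the depth is unknown, no level in any sample can be shown and no test between cultures was possible. Neither name describes sites that were open in stem cells and closed by the morphogens, so a site of that kind would not be seen here.

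SOX2, a protein of the SOX family, and OCT4, the POU-domain product of POU5F1, bind DNA together in pluripotent cells and activate many of their own regulators. NANOG, a homeodomain protein, is among their targets and supports self-renewal. PRDM14 is a zinc-finger regulator of the human stem cell state. SALL4 is a zinc-finger protein of stem cells and embryonic tissues. LIN28B is an RNA-binding protein that blocks maturation of let-7 microRNAs. Most of these genes fall in expression as stem cells differentiate, while SOX2 and SALL4 are also used in other embryonic tissues.

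Promoters of these genes are shown first, since the NANOG promoter holds the joint element through which OCT4 and SOX2 are known to act. RefSeq promoter windows (GRCh38.p14) were found for 3 of the 6 genes, SOX2, NANOG and LIN28B, the last with 2 windows. The joint octamer and SOX motif, TTTGCAT followed after 1 base by ACAATG, was searched on both strands. It was present in 3 of 35116 such windows (0.00854%), and NANOG was 1 of these. The NANOG element was known beforehand, so its match is not a result of the search. Only this exact spelling was counted. The shorter octamer part TTTGCAT, which is contained in the joint motif, was present in 1567 windows (4.46%), among them those of NANOG and SOX2 and neither of those of LIN28B. The 250 bases before each start are shown for NANOG and SOX2, on the plus strand, at chr12:7789152-7789401 and chr3:181711675-181711924, with the motif match in capitals (the joint motif for NANOG, and for SOX2 the octamer part on the opposite strand).

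NANOG: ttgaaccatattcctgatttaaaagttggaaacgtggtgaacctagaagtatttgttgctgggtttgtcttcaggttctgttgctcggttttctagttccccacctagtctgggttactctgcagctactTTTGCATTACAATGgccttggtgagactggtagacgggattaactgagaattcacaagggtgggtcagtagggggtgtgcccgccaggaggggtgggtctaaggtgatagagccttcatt
SOX2: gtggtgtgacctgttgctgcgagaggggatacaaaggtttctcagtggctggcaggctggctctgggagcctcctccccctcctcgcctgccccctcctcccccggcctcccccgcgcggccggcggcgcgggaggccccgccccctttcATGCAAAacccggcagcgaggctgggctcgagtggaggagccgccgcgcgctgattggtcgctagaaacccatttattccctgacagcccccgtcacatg

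The NANOG match lay 120 to 107 bases before the gene start and the SOX2 match 100 to 94 bases before it. These positions are on GRCh38.p14, whereas the listed sites are on hg19. No hg19 annotation was used here, so whether a listed site covers a promoter, exon or intron of any of the 6 genes was not determined. For the same reason the sequences of the listed sites are not shown.

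The 6 intervals together were not short of sites. They held 11 opened sites (exact Poisson 95% interval 5.49 to 19.7) where the autosomal mean of 2.79 opened sites per Mb gave 9.78, a ratio of 1.13 (0.562 to 2.01). They held 15 p63-closed sites (95% interval 8.4 to 24.7) where the autosomal mean of 2.16 per Mb gave 7.57, a ratio of 1.98 (1.11 to 3.27). Of the 26 sites, 57.7% were p63-closed (exact Clopper-Pearson 95% interval 36.9 to 76.6%), against 43.6% of all 13758 autosomal listed sites, which lies inside that interval. Leaving out the NANOG interval, which held opened sites only, necessarily raised the share. It was then 71.4% (47.8 to 88.7%), and the autosomal share lies outside that interval. Leaving out any other single interval kept the autosomal share inside, as without LIN28B, at 50% (24.7 to 75.3%). The intervals cover counting error alone, and listed sites gather along chromosomes: in 1.4 Mb autosomal windows, counts of p63-closed sites had a variance 2.66 times their mean. The limits given here are therefore too narrow. The p63-closed total also rests on LIN28B, without which it was 8 sites against 6.49, a ratio of 1.23 (0.532 to 2.43). The opened total is carried to a large part by NANOG, without which it was 6 sites against 8.94, a ratio of 0.671 (0.246 to 1.46).

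**Figure D1:**
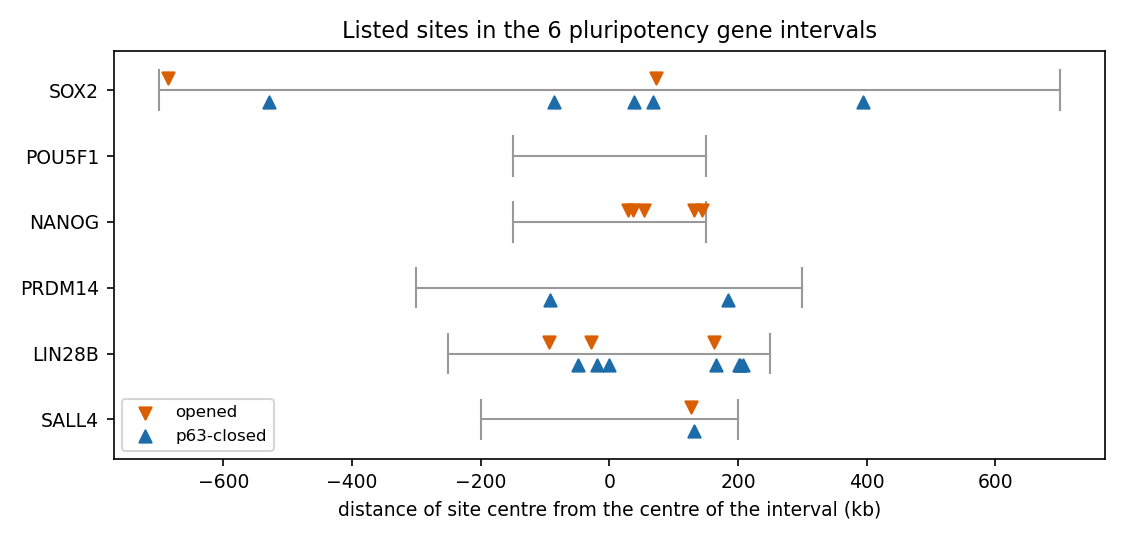
Position of each listed site, as the distance in kb of its centre from the centre of its interval, for the 6 intervals (grey lines drawn to scale, ends marked). Orange triangles are opened sites and blue triangles p63-closed sites; POU5F1 has neither, NANOG has 5 opened sites on its right side, and LIN28B has 10 sites of both lists.

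The intervals differed in which list they held. Where sites are counted, a gene name stands for its interval, and no site was assigned to a gene. The NANOG interval held opened sites and no p63-closed site, and that of PRDM14 held p63-closed sites and no opened site. Those of SOX2, LIN28B and SALL4 held both, and that of POU5F1 held neither. To show how common each count is, autosomes were tiled with windows as wide as each interval. The share of windows with at least as many sites (or, for a count of 0, with none) is given as a description. By this measure the absence of a list was common. No p63-closed site was present in 61.8% of windows as wide as the NANOG interval. Of windows as wide as that of PRDM14, 30.2% had no opened site and 32.6% had as many p63-closed sites. The opened count at NANOG was rarer, at 1.54% of windows.

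**Figure D2:**
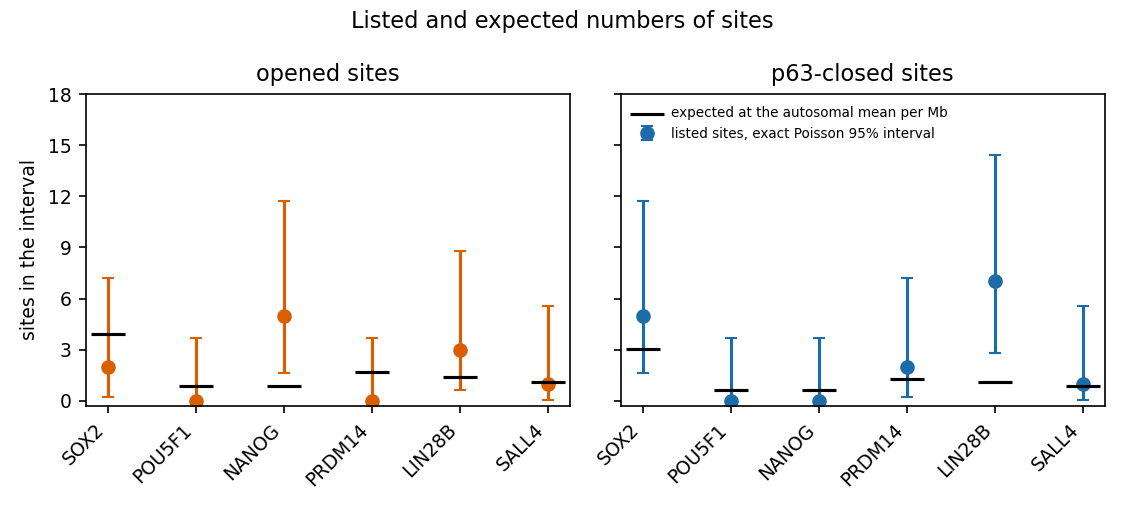
Number of listed sites in each interval (points) with exact Poisson 95% intervals (bars), for opened sites (left) and p63-closed sites (right), beside the number expected at the autosomal mean per Mb (black dashes). The bars for NANOG opened sites (5 sites) and LIN28B p63-closed sites (7 sites) lie above their dashes, and every other bar includes its dash.

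POU5F1, which encodes the central regulator OCT4, had no listed site of either kind. The expected numbers were 0.838 opened and 0.649 p63-closed sites. A count of 0 has an upper exact limit of 3.69 sites, which is above both expected numbers. No opened site was present in 51.6% of 9240 windows of the same width, no p63-closed site in 61.8% and no site of either list in 34.3%. The surroundings were also bare. The nearest opened site lay 440 kb to the left of the interval, from 30558287 to 30560056, and the nearest p63-closed site 481 kb to the right, from 31781383 to 31783704. Between them ran 1221 kb without a listed site. Of 13736 gaps between neighbouring autosomal sites, 160 (1.16%) were as long or longer, and gaps of this length made up 12.5% of the autosomal length. On the right, the nearest opened site was 3680 kb away.

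Site numbers show that regions in this stretch were in the authors' catalogue. Each name ends in a number that increases with position, and the sites that bound the POU5F1 gap are separated by 744 numbers that are in neither list. By interpolation the interval itself held about 183 entries, 609 per Mb, against 632 per Mb over the autosomes. What put a region in the catalogue is not stated. In the GRCh38.p14 gene table POU5F1 lies between TCF19 and CCHCR1 on one side and HLA-C and HLA-B, of the major histocompatibility complex, on the other.

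NANOG stood at the other end for opened sites. Its interval held 5, where 0.838 were expected, a ratio of 5.97 (1.94 to 13.9), and 1.54% of 9240 windows of the same width held as many. It held no p63-closed site, as did 61.8% of such windows, and the nearest was 883 kb to the right. The 5 opened sites lay within 117 kb on the right side of the interval, in a group of 3 and a group of 2. The group of 3 was formed by 7977618 to 7979340 (1723 bp), 7985724 to 7987863 (2140 bp) and 8002679 to 8006412 (3734 bp), and spanned 28.8 kb. The group of 2 was formed by 8080122 to 8082832 (2711 bp) and 8092925 to 8094163 (1239 bp), and spanned 14 kb. A gap of 73.7 kb separated the groups.

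The opened sites in the NANOG interval ranged from 1239 to 3734 bp in width. The site of 3734 bp was wider than 98.9% of all opened sites, and the site of 2711 bp was wider than 91.6%. Of the 5, 4 exceeded the median of all opened sites, 1597 bp, and the exception was the last one, wider than 26% of the list. Together the 5 covered 11547 bp. They formed part of a run of 11 opened sites, uninterrupted by the other list, from 6266920 to 8841148. Runs this long made up 2.72% of the 2717 runs of opened sites on autosomes and held 14.4% of their sites. Outside the group the surroundings were empty, with no listed site for 867 kb to the left of the interval and 731 kb to the right. The stretch without a listed site on the left, up to the first of the 5 sites, measured 1044 kb. Of 13736 gaps between neighbouring autosomal sites, 267 (1.94%) were as long or longer, and such gaps made up 16.8% of the autosomal length.

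The interval also takes in other genes' surroundings. In the GRCh38.p14 table NANOG is followed by SLC2A14 and SLC2A3, which encode related glucose transporters, and is preceded by NANOGNB, CLEC4C and DPPA3, the last a gene of germ cells and early embryos. The interval was drawn around NANOG, but a site in it can lie nearer to a neighbour, and which gene is nearest was not determined. SLC2A14 and SLC2A3 are close copies of each other, and NANOG has a nearby duplicated pseudogene, so reads from such copies can be placed on either one. The treatment of such reads is not stated.

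PRDM14 had the reverse make-up. No opened site was listed, where 1.68 were expected, and 30.2% of 4614 windows of the same width had none. There were 2 p63-closed sites where 1.30 were expected, a ratio of 1.54 (0.187 to 5.56), and 32.6% of windows had as many. They were from 70906255 to 70908370 (2116 bp) and from 71183384 to 71184861 (1478 bp), 275 kb apart. Opened sites lay on both sides at similar distances, 215 kb to the left of the interval, from 70481049 to 70484970, and 219 kb to the right, from 71519340 to 71521150. Both counts at PRDM14 were within counting error of their expectation. Its neighbours in the gene table are SLCO5A1, a solute carrier, and NCOA2, a nuclear receptor coactivator.

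LIN28B had the most listed sites of the 6, with 10 in 0.5 Mb, or 20.0 per Mb. There were 7 p63-closed sites where 1.08 were expected, a ratio of 6.47 (2.60 to 13.3), and 0.974% of 5543 windows of the same width held as many. There were 3 opened sites where 1.40 were expected, a ratio of 2.15 (0.443 to 6.28), and 18.4% of windows held as many. Of both lists together, 1.28% of windows held 10 or more. By interpolation 346 catalogue entries lay in the interval, of which 2.89% were listed, against 0.785% of autosomal entries. The NANOG interval was alike in this, at 2.95% of 169 entries, while SOX2 had 0.703%, SALL4 0.648% and PRDM14 0.482%. Entries were spread rather evenly, with 692 per Mb at LIN28B and 565 at NANOG against 632 over the autosomes. These shares therefore largely restate the site counts per Mb.

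The LIN28B sites fell into a pair of groups of 5, each with both lists. The left group spanned 96.0 kb and held, in order, an opened site from 105355566 to 105357895, a p63-closed site from 105400743 to 105402674, an opened site from 105420712 to 105421867, and p63-closed sites from 105430816 to 105431891 and from 105449001 to 105451592. The last of these, 2592 bp, was wider than 91.5% of p63-closed sites. After 161 kb without a listed site came the right group, which spanned 47.3 kb. It held an opened site from 105612118 to 105613129 and p63-closed sites from 105615849 to 105616997, 105651018 to 105651797, 105652104 to 105653243 and 105657366 to 105659417.

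Some neighbouring sites at LIN28B were less than 10 kb apart, as were 12.2% of the 13736 neighbouring pairs on autosomes. The p63-closed sites at 105651018 and 105652104 were 306 bp apart and had consecutive catalogue numbers. Joining sites of 1 list within 10 kb merged these 2 and the next into 1 and lowered the p63-closed total of the 6 intervals from 15 to 13. With the autosomal mean recomputed in the same way, the ratio was 1.87 (0.995 to 3.19). The opened and the p63-closed site at 105612118 and 105615849 were 2.72 kb apart, with 2 catalogue entries between them. Those at 105420712 and 105430816 were 8.95 kb apart. An opened site from 105701269 to 105702404 lay 1.27 kb beyond the right end of the interval and was not counted.

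In the gene table LIN28B stands between HACE1, a ubiquitin ligase gene, on one side and POPDC1 and POPDC3, of the Popeye family of membrane proteins, on the other. As for NANOG, a site in the interval may lie nearer to a neighbour.

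**Figure D3:**
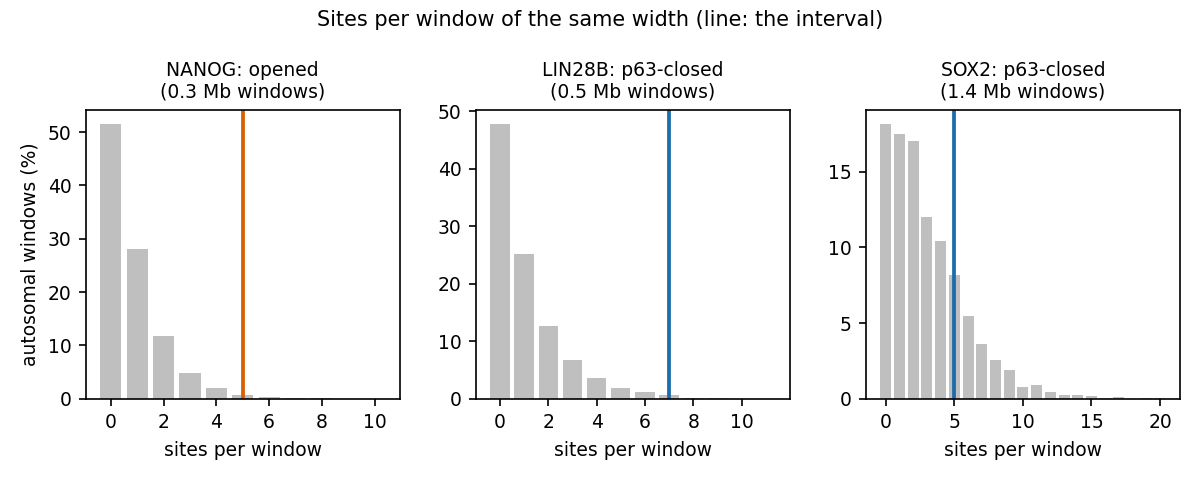
Share of autosomal windows (percent, y axis) by number of sites per window (x axis), for opened sites in windows as wide as the NANOG interval, and for p63-closed sites in windows as wide as the LIN28B and SOX2 intervals. The coloured line marks the interval; 1.54%, 0.974% and 24.9% of windows lay at or beyond it.

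SOX2 lay near the autosomal average in spite of its wide interval, with 7 sites in 1.4 Mb where 6.94 were expected. There were 5 p63-closed sites where 3.03 were expected, a ratio of 1.65 (0.536 to 3.85), and 24.9% of 1971 windows held as many. There were 2 opened sites where 3.91 were expected, a ratio of 0.511 (0.0619 to 1.85), and 78.0% of windows held as many. Both counts were within counting error of their expectation.

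The SOX2 sites were spread out, with 1 closer group. The first site, opened, ran from 180813797 to 180814822, near the left end of the interval, and the second, p63-closed, from 180969856 to 180971215. After 441 kb without a listed site came a p63-closed site from 181412589 to 181414266. The closer group spanned 36.5 kb. It had p63-closed sites from 181537598 to 181540059, at 2462 bp wider than 89.2% of its list, and from 181567704 to 181569590, and an opened site from 181572525 to 181574079. The last pair, of different lists, was 2.93 kb apart, with 1 catalogue entry between them. The last site, p63-closed, ran from 181894219 to 181895478. The nearest protein-coding genes in the table are DNAJC19 on one side and ATP11B on the other.

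SALL4 had 1 site of each list, at its expectation, with 1.12 opened and 0.866 p63-closed sites expected. Windows with at least as many made up 57.5% and 45.7% of 6927. The opened site ran from 50526236 to 50528548 (2313 bp, wider than 82.9% of opened sites) and the p63-closed site from 50531014 to 50531764 (751 bp, narrower than all but 3.25% of p63-closed sites). They were 2.46 kb apart, with 3 catalogue entries between them. Both lay on the right side of the interval, after 380 kb without a listed site. SALL4 stands between ATP9A, a phospholipid-transporting ATPase gene, and ZFP64, a zinc-finger gene, in the table.

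An opened site beside a p63-closed one recurred in 3 of the 6 intervals. Of 21 neighbouring pairs inside the intervals, 7 were less than 10 kb apart, against 12.2% of 13736 autosomal pairs. The difference was not tested, and the sets are unlike. A pair inside an interval cannot be further apart than the interval is wide, while autosomal pairs have no such limit. This limit alone raises the share of close pairs inside the intervals. Of these 7 pairs, 4 had 1 site from each list: 2 at LIN28B, 1 at SOX2 and 1 at SALL4. That is 57.1% (exact Clopper-Pearson 95% interval 18.4 to 90.1%), and the share over the 1678 autosomal pairs this close, 33.6%, lies inside that interval. At any distance 9 of the 21 pairs were mixed, against 39.3% of 13736 autosomal pairs. Each such pair is 2 separate regions that the authors placed in different lists.

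Widths of the sites resembled those of the lists. The 11 opened sites ranged from 1012 to 3734 bp with a median of 1723 bp, against a median of 1597 bp (quartiles 1222 and 2063 bp) for all opened sites. The 15 p63-closed sites ranged from 751 to 2592 bp with a median of 1478 bp, against 1531 bp (1179 and 2005 bp). Of the opened sites 6 of 11, and of the p63-closed sites 7 of 15, were above the median of their list. Within LIN28B, 4 of the 7 p63-closed sites were between 780 and 1149 bp, narrower than the lower quartile.

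**Figure D4:**
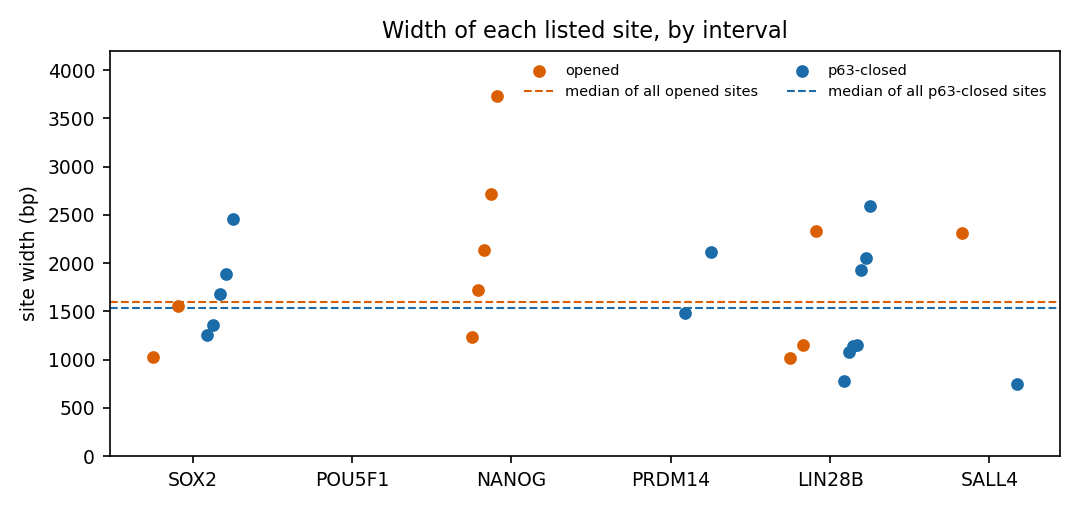
Width in bp of each of the 26 listed sites by interval (points), orange for opened and blue for p63-closed sites, with the median width of all sites of each list as dashed lines. The widest, 3734 bp, is an opened site of the NANOG interval; the narrowest, 751 bp, is the p63-closed site of the SALL4 interval.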

How the data were processed

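The tools named in the submitters' processing notes, with no version or role, are Bowtie2, MACS2, DESeq2, SAMtools and FastQC, and the builds are hg19 and GRCh37. Thresholds and any pooling are not stated. The deposited lists hold start and end positions and a site name, and no other value. Per the labels' protocols, libraries were sequenced deeply only after passing an enrichment score at transcription start sites.

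Sites were assigned to intervals by their centre, and positions were converted to 1-based. The expected number is the interval's length times the autosomal mean per Mb, over 2775.2 Mb from the first to the last listed site of each autosome, assembly gaps included. Windows were tiled without overlap from the first listed site. Catalogue numbers at interval ends were interpolated between the listed sites on both sides. The autosomal total of entries left out 6 jumps in the numbering. Intervals are exact at 95%. Counting was tested on simulated sites placed independently at random. Listed sites gather along chromosomes, so that test does not show that the 95% limits are wide enough. Genes were named from RefSeq tables (all 6 matched), with some of their neighbours, and a full list of genes inside the intervals was not drawn up. Every listed site of the intervals is given, with at least the nearest site outside where a list had none. The genes, intervals and measures were chosen with earlier results of these data known. Python 3.11.15, numpy 2.4.6, pandas 2.3.3, scipy 1.17.1 and matplotlib 3.10.9 were used.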

Additional observations from a re-analysis of the deposited data

How the results depend on the processing

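No paired analysis was possible because neither list gives a value for any sample, so leaving out replicates was not possible either. Of 44 alternative values, 39 stayed inside the exact interval of the value reported, with their own interval including or leaving out the reference (a ratio of 1, or the autosomal share) as before. Of the other 5, 4 concern p63-closed sites of the 6 intervals together, whose ratio to expectation of 1.98 stayed above 1 while its interval came to include 1. The ratio was 1.67 (0.974 to 2.68) with intervals widened by 100 kb at both ends, 1.85 (0.743 to 3.81) with the central 50% of each interval, which holds fewer sites, 1.87 (0.995 to 3.19) with sites within 10 kb joined, and 1.23 (0.532 to 2.43) without the LIN28B interval. Over 13 alternatives this ratio ran from 1.23 to 2.20, and that of opened sites from 0.671 to 1.53, with intervals that included 1 in each. The opened ratio of 1.13 fell below 1 without the NANOG interval (0.671) and without the LIN28B interval (0.955). Expectations from catalogue entries gave 1.81 (1.01 to 2.99) and 1.03 (0.514 to 1.84). Entries were spread rather evenly (691 per Mb in the intervals, 632 over the autosomes), so these expectations are close to those from length. Assigning sites by any overlap, or only when wholly inside, changed no count. Leaving out 1 interval at a time moved the p63-closed share between 50% and 71.4%. The highest was without NANOG, where the exact interval (47.8 to 88.7%) no longer included the autosomal 43.6%. Shifting the windows left each of 12 shares inside its interval. Without a score per site no stricter threshold was tried, and with unknown depth a region in neither list is not shown to be unchanged.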

Other observations

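The ground beside some intervals held more sites than the intervals themselves on at least 1 side. In a stretch as wide as the interval to the left of SALL4 there were 5 opened sites where 1.12 were expected, and no p63-closed site, against 1 of each inside; the stretch to its right held fewer than the interval, with 1 opened and no p63-closed site. To the left of PRDM14 there were 3 opened sites and to the right 2, where 1.68 were expected on each side and none lay inside. The stretch to the left of SOX2 held 4 p63-closed and no opened sites, and that to the right 2 p63-closed and 6 opened sites. On each side 3.03 p63-closed and 3.91 opened sites were expected.

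The sites at LIN28B went on past both ends of its interval. The stretch to the left held 4 opened and 2 p63-closed sites, and that to the right 4 opened and 3 p63-closed sites, where 1.40 and 1.08 were expected on each side. On the right the order was 4 opened sites, from 105701269 to 105822416, followed by 3 p63-closed sites, from 105886317 to 106018211. By contrast, the stretches on both sides of NANOG and of POU5F1 held no site of either list. These stretches were chosen after the sites inside the intervals had been seen, and no test of them was made.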
